A study of Mus musculus with 7 samples.

Results

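The 81 genes described here encode the protein components of the cytosolic ribosome, 50 of the large subunit (Rpl and Rplp symbols) and 31 of the small subunit (Rps symbols and Rpsa). They were chosen by symbol from the 21887 protein-coding genes of the mouse reference table. The rule reads symbols alone, but the gene family itself was picked with earlier results of these data known. The rule takes Rpl or Rps with a number and at most one letter, plus Rplp0, Rplp1, Rplp2 and Rpsa. It leaves out kinases of the Rps6k family, processed copies, and a few ribosomal proteins with longer symbols, such as Rps3a1.

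The study mapped binding of Oct1 (encoded by Pou2f1) and Oct4 (encoded by Pou5f1), related POU-domain transcription factors, by chromatin immunoprecipitation and sequencing in mouse embryonic stem cells (ESCs). All libraries came from cells whose genotype is given as Parental, although the design text speaks of depleted ESCs without saying which samples it means. They were Oct1 in ESCs (antibody NBP2-21584), Oct4 in ESCs (antibody sc-5279), and Oct1 with the first antibody at day 3 and day 6 of differentiation towards mesoderm. Mesodermal culture began with Bmp4 for 2 days and went on with Rspo3 and LDN-193189, a BMP receptor inhibitor, for 4 days, so day 3 fell after the change of medium. Knockout and retinoic acid arms, which the design text also names, were not analysed here. Each group held 1 library. There was therefore no replicate error, no test across libraries was made, and every count below describes these libraries. Cell identity could not be checked, since peak lists measure no expression, and in a mixed culture fewer bound cells and weaker binding per cell cannot be told apart.

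A ribosome joins a small subunit, which reads the messenger RNA, to a large subunit, which forms the peptide bond. Nearly every one of its proteins is encoded by a single active gene that is transcribed at a high rate in growing cells, and whose products are made in matched amounts. Mammalian ribosomal protein genes are known for short promoters without a strict TATA box and for transcripts that start at a C within a pyrimidine stretch, the terminal oligopyrimidine (TOP) signal through which their translation follows nutrient supply. Oct1 and Oct4 are best known for binding the octamer ATGCAAAT and its variants.

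The promoters below show the bases around the starts of 8 members, as RefSeq gives them for GRCm38.p6, from 250 bases before the start to 50 after it. Each is written 5′ to 3′ on the strand of the gene. Capitals mark matches to the ETS core CCGGAAG (on the other strand CTTCCGG), the YY1 core AAGATGGCG, the palindrome CTCGCGAG and, near the start, the pyrimidine run CTTTCC. GC boxes are not marked, and a window all in lower case holds none of the marked motifs. Promoters were available for 61 of the 81 members, and 20 had no entry, among them Rpl3, Rpl7, Rpl8, Rpl17, Rpl21, Rpl23a, Rpl29, Rpl30, Rpl32, Rpl36, Rplp1, Rps14, Rps20, Rps27a and Rps29. The first pair carried the highest Oct1 scores at day 6 among members with an entry. They are Rpsa (chr9:120127516-120127815, plus strand) and Rps16 (chr7:28350439-28350738, plus strand).

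Rpsa: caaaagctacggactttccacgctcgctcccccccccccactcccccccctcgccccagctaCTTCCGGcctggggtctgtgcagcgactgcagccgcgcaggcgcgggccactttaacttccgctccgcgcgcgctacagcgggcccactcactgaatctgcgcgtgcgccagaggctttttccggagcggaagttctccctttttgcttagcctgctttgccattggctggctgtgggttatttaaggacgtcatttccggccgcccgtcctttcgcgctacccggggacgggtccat
Rps16: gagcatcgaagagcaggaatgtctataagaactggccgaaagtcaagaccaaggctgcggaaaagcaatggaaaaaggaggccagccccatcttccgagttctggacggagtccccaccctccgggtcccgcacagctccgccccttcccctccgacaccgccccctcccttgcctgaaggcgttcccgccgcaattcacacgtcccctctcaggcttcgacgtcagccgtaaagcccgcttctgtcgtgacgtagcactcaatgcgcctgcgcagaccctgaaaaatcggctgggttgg

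The second pair carried the highest Oct1 scores in ESCs among members with an entry, and both also had a peak in the other 3 lists. They are Rps9 (chr7:3703791-3704090, plus strand) and Rps19 (chr7:24884342-24884641, plus strand).

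Rps9: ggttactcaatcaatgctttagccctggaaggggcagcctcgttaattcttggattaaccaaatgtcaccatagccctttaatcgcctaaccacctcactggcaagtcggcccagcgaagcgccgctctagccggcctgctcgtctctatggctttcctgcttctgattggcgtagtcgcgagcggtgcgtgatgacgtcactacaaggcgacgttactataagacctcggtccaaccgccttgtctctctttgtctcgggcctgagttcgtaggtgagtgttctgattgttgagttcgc
Rps19: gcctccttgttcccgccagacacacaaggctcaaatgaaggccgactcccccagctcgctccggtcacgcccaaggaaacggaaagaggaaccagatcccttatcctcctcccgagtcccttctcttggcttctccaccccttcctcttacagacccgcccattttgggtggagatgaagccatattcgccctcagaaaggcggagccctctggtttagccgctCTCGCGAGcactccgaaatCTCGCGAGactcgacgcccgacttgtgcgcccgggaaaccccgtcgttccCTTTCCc

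For contrast, the first members in alphabetical order with no peak in any list were Rpl10 (chrX:74270566-74270865, plus strand) and Rpl10l (chr12:66284352-66284651, minus strand). Rpl10l encodes a paralog of Rpl10 known from the testis.

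Rpl10: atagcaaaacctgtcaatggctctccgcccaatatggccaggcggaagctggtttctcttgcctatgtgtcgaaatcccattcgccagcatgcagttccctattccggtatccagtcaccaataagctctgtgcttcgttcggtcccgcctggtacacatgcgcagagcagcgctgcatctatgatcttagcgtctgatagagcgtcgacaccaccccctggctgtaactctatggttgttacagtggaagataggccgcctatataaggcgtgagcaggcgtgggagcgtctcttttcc
Rpl10l: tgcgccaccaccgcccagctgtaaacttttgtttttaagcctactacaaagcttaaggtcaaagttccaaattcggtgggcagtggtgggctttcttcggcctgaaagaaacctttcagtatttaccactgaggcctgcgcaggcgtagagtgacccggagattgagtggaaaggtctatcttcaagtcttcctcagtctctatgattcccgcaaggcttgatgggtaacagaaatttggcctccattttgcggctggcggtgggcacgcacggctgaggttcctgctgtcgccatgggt

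The last pair was chosen after the values were seen, because both promoters hold CTCGCGAG just before the start and differ in their peaks. Rpl27a (chr7:109518945-109519244, plus strand) had an Oct1 peak at day 6, and Rpl12 (chr2:32961462-32961761, plus strand) had none in any list.

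Rpl27a: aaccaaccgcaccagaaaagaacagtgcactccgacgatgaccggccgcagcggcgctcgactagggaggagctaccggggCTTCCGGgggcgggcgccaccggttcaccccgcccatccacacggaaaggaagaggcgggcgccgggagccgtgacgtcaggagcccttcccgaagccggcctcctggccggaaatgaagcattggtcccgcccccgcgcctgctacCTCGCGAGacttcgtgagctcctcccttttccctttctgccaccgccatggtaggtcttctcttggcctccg
Rpl12: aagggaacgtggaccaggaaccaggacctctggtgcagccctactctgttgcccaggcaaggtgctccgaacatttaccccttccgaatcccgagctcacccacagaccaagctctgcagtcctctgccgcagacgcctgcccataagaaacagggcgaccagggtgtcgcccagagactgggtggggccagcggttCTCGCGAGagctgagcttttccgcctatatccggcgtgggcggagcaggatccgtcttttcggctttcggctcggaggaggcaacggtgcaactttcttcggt

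Oct1 peaks lay within 1 kb of the ends of more ribosomal protein genes at day 6 than earlier. A gene was counted where the midpoint of a peak lay within 1 kb of either end of the annotated gene. At day 6, 47 of the 81 members (58.0%, exact Clopper-Pearson 95% interval 46.5 to 68.9) had such a peak, against 29.5% of all protein-coding genes. At day 3 the number was 16 (19.8%, 11.7 to 30.1), against 14.0% of all genes. In ESCs, 11 members (13.6%, 6.98 to 23.0) had an Oct1 peak and 13 (16.0%, 8.83 to 25.9) an Oct4 peak, against 8.52% and 8.91% of all genes. The background lay inside the members' interval for day 3 and for both ESC lists, with Oct4 close to its lower bound, and below it for day 6. For the first 3 lists this depended on the setting. Over 9 alternatives the share of all genes fell below the members' interval in 3 for ESC Oct1, 4 for Oct4 and 1 at day 3, and in all 9 at day 6. For day 3, 1 of the 9 repeated the main count, since that list is itself the shortest. Both subunits took part at day 6, with 28 of 50 large subunit genes (56.0%) and 19 of 31 small subunit genes (61.3%). The day 6 count of 47 became 36 (44.4%, against 25.2%) with each peak given only to the nearest gene end. It became 40 (49.4%, against 21.3%) with every list cut to the length of the shortest. With the higher-scoring 50% of peaks it became 31 (38.3%, against 17.4%). The intervals in this paragraph cover the counting of genes only and treat genes as independent. The family was picked with earlier results of these data known, so an interval that leaves out the background is a description and not a test. Numbers of peaks also depend on sequencing depth and on the calling threshold, which the lists do not give.

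**Figure D1:**
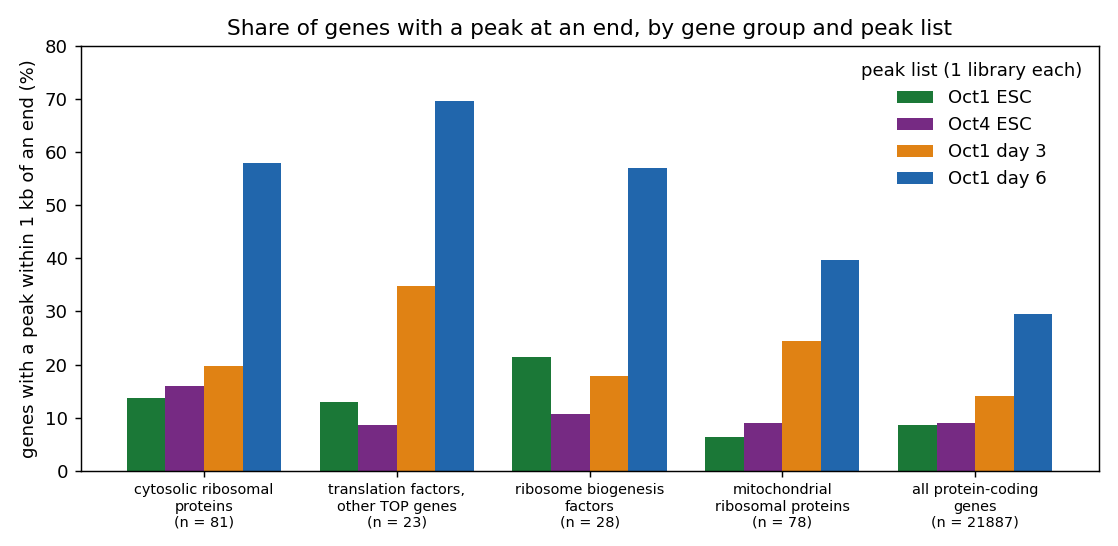
Percent of genes with a peak midpoint within 1 kb of an end (vertical axis) for the cytosolic ribosomal protein genes, 3 related gene groups and all protein-coding genes, with 1 bar for each peak list of 1 library. The day 6 bar of the ribosomal protein genes reaches 58.0%, against 29.5% for all genes, while their ESC bars stay at 13.6% and 16.0%.

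Of the 81 members, 28 (34.6%) had a peak in the day 6 list alone, against 15.3% of all protein-coding genes. Among genes with a day 6 peak, these were 59.6% of the members and 51.9% of all genes, so the members were near the background on that basis. Another 6 (7.41%) had one at day 3 and day 6 only, where all genes gave 9.29%. Peaks in all 4 lists were found at 7 members (8.64%, against 1.09%), and 31 members (38.3%, against 62.0%) had no peak at an end in any list. Of the 16 members with a day 3 peak, 15 (93.8%) also had one at day 6, close to the 86.1% seen over all genes, and the peaks of these 15 overlapped. The exception was Rps27a, which makes a ribosomal protein fused to ubiquitin. Its day 3 peak was nearer to an end of Clhc1, at 60 bp, than to Rps27a, at 150 bp. Seen from day 6, 31.9% of members with a peak had one at day 3, against 40.9% of all such genes.

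Members with an ESC Oct1 peak also had one at day 6. This held for all 11, against 42.8% of all genes with an ESC Oct1 peak, and in each case the peaks of the 2 lists overlapped. Seen from day 6, these were 23.4% of the 47 members, against 12.4% of all genes with a day 6 peak. Oct4 shared 9 of the 11 (81.8%, against 58.7% over all genes), and Rpl37 was among the exceptions. In the other direction, 9 of the 13 members with an Oct4 peak (69.2%, against 56.2%) had an ESC Oct1 peak. The authors' score, a whole number without a stated unit, ranks peaks within 1 list only. On that scale the highest ESC Oct1 peak per member had a median percentile of 90.7 (order-statistic interval 67.5 to 93.1, n = 11), against 72.9 over all genes with a peak at an end, which lies inside that interval. Of the 11, 6 were in the top 10% of the list, where 26.3% of all such genes were.

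The highest-ranked ESC Oct1 peak among members lay at one end of Rpl36 (gene ID 54217), a small protein of the large subunit. Its scores were 511 for Oct1 in ESCs (rank 840 of 17709), 198 for Oct4 (rank 5434 of 22817), 204 at day 3 (rank 2345 of 4867) and 928 at day 6 (rank 1889 of 7758). The ESC Oct1 peak (chr17:56609481-56610280) was nearer to the start of Micos13, at 109 bp, than to Rpl36, at 214 bp. At day 3 the order was the other way round, with Rpl36 at 99 bp and Micos13 at 224 bp.

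Rps9 (gene ID 76846), a small subunit protein that helps to keep decoding accurate, came next with an ESC Oct1 score of 397 (rank 1212). It scored 239 for Oct4 (rank 3339), 150 at day 3 (rank 2945) and 344 at day 6 (rank 5089). Weaker peaks near the 3′ end of Rps9 were listed in 3 libraries, with scores of 80 for ESC Oct1, 125 for Oct4 and 52 at day 3.

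Rpl3 (gene ID 27367), a protein next to the peptidyl transferase centre, had scores of 379 in ESCs (rank 1350), 184 for Oct4 (rank 6478), 154 at day 3 (rank 2886) and 533 at day 6 (rank 3712). No other protein-coding gene had an end within 1 kb of these peaks.

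Rps19 (gene ID 20085), the gene most often mutated in Diamond-Blackfan anaemia, had scores of 343 in ESCs (rank 1565), 248 for Oct4 (rank 2972), 352 at day 3 (rank 1211) and 803 at day 6 (rank 2335). Its 4 peaks lay 232 to 352 bp before the start, farther upstream than those of most members. Its score percentiles were 91.2, 87.0, 75.1 and 69.9 in that order, so it stood in the upper part of every list.

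Rps7 (gene ID 20115), a small subunit protein that also binds Mdm2, scored 213 in ESCs (rank 3413), 293 for Oct4 (rank 1690), 302 at day 3 (rank 1499) and 402 at day 6 (rank 4627). Rps28 (gene ID 54127) scored 139 (rank 6311), 338 (rank 1070), 148 (rank 2964) and 551 (rank 3596) in the same order. The ESC Oct1 midpoint lay 3 bp from the start of Rps28 and 7 bp from that of Ndufa7, a subunit of respiratory complex I, so the peaks cannot be given to either gene by position.

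The remaining member with a peak in all 4 lists was Rpl3l (gene ID 66211), a paralog of Rpl3 known from heart and skeletal muscle. Its scores were 334 in ESCs (rank 1644), 284 for Oct4 (rank 1910), 550 at day 3 (rank 599) and 691 at day 6 (rank 2861). These peaks lay 437 to 642 bp from the 3′ end of Rpl3l and nearer to the start of Msrb1, at 13 to 192 bp. The day 3 score was the highest of any member at that time.

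Rpl37 (gene ID 67281), a zinc-binding protein of the large subunit, had an Oct1 peak at all 3 times and no Oct4 peak. Its scores were 145 in ESCs (rank 5731), 208 at day 3 (rank 2284) and 520 at day 6 (rank 3797). These peaks were 102 to 112 bp from an end of Card6 and 153 to 163 bp from the start of Rpl37.

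Rpl39 (gene ID 67248), a very short protein that lines the exit tunnel of the large subunit, and Rpl36a (gene ID 19982) are both on chromosome X. They had peaks in ESCs and at day 6 but none at an end at day 3. Rpl39 scored 337 for Oct1 in ESCs (rank 1592), 348 for Oct4 (rank 941, the best of any member in that list) and 648 at day 6 (rank 3079). Rpl36a scored 213 (rank 3413), 136 (rank 11992) and 117 (rank 7005, the lowest of any member at day 6).

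Oct4 peaks without an Oct1 peak in ESCs were listed at 4 members, among them Rpl26, Rps15 and Rpl8. Rpl26, a large subunit protein known to regulate p53 translation, had an Oct4 score of 193 (rank 5670) and a day 6 Oct1 score of 404. Rps15 (score 118) and Rpl8 (score 104) had an Oct4 peak only, at 129 and 809 bp from an end.

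**Figure D2:**
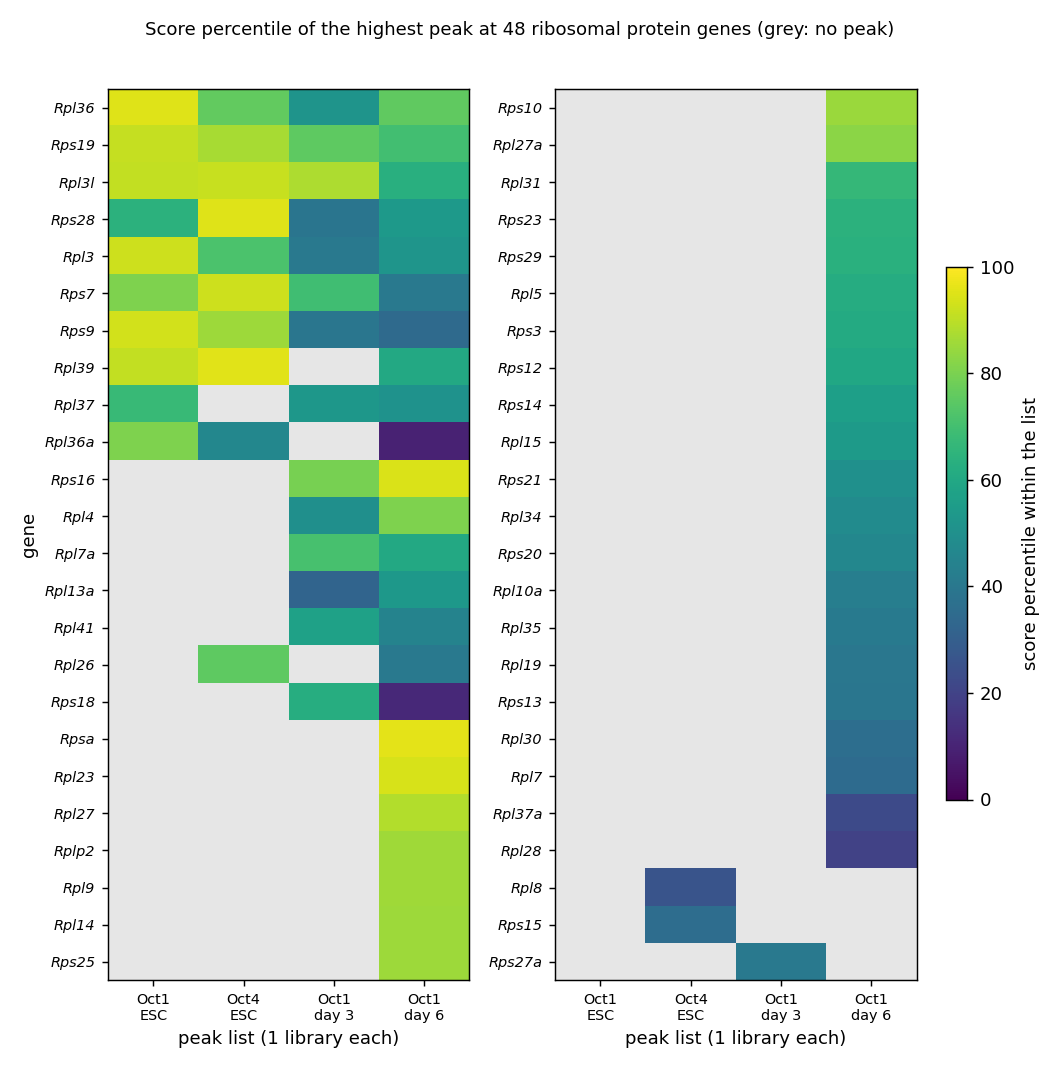
Score percentile within each peak list (colour, 0 to 100) of the highest peak at 48 of the 50 ribosomal protein genes with a peak in any list (rows), in 4 lists of 1 library each (columns). Grey means no peak within 1 kb of an end; the right-hand panel is mostly genes with a day 6 peak alone, and the first 7 rows have a peak in all 4 lists.

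At day 3 the 10 highest-scoring members ran from Rpl3l (score 550) to Rpl36 (score 204). Among those between them were Rps16 (402, rank 1002), Rps19 (352), Rpl7a (315, rank 1417), Rps7 (302), Rps18 (256, rank 1825), Rpl41 (229, rank 2077) and Rpl37 (208). None of the 16 members was in the top 10% of the day 3 list, where 12.1% of all genes with a peak at an end were. The median percentile of the 16 members was 55.0 (interval 40.5 to 75.1), against 61.4 over all genes. With peaks given only to the nearest gene end, the order turned, with 69.2 for 9 members against 61.6. Lower scores at day 3 were those of Rpl4 (194), Rpl3 and Rps27a (154 each), Rps9 (150), Rps28 (148) and Rpl13a (124).

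Several of these day 3 peaks lay closer to a neighbour than to the ribosomal protein gene. Of 18 member peaks, 8 had a nearer end of another protein-coding gene. In the other lists this held for 11 of 47 member peaks at day 6, 3 of 12 for ESC Oct1 and 2 of 14 for Oct4. The same share over the peaks of all genes was not computed. At Rps18 the start of B3galt4 was 138 bp away and Rps18 itself 648 bp. At Rpl41 the start of Zc3h10 was 193 bp away and the 3′ end of Rpl41 295 bp. At Rpl4 the start of Snapc5, a subunit of a complex that binds and activates small nuclear RNA promoters, was 58 bp away and the 3′ end of Rpl4 793 bp. When each peak was given only to the nearest gene end, 9 of 81 members (11.1%) had a day 3 peak, against 11.8% of all genes, so on that basis the day 3 share was near the background.

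The day 6 peaks spanned most of their list. The 47 best scores had a median of 637 (rank 3127 of 7758), and the lowest was 117 (rank 7005). The median percentile was 59.7, against 58.2 over all genes with a peak at an end, and 14 members (29.8%) were in the top 25% of the list against 30.3% of all such genes. Members thus had peaks more often than other genes at day 6, and the peaks were of ordinary rank.

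Among the 10 highest at day 6 was Rpsa (gene ID 16785; score 1965, rank 309), a small subunit protein also known as the laminin receptor precursor. Rps16 (gene ID 20055; 1731, rank 450) and Rpl23 (gene ID 65019; 1715, rank 462) followed. Rpsa and Rpl23 had no peak at an end in the other lists, and Rps16 had one at day 3. Their peak midpoints lay 71 bp before the start of Rpsa, 81 bp after that of Rps16 and 1 bp before that of Rpl23. Next were Rpl27 (1334), Rplp2 (1220), which forms part of the acidic stalk that recruits elongation factors, Rpl9 (1213), Rpl14 (1210), Rps25 (1204) and Rps10 (1187). Some of these peaks had a nearer neighbour. At Rplp2 the start of Pidd1 was 20 bp away and Rplp2 106 bp, at Rpl9 the start of Lias was 17 bp away and Rpl9 49 bp, and at Rps25 an end of Trappc4 was 58 bp away and Rps25 224 bp. Day 6 peaks at the other 37 members had scores from 117 to 1113, with Rpl27a (1113) and Rpl4 (1052) at the upper end.

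Where the strand was known, most day 6 peaks sat close to an annotated start. The strand, read from the promoter table, was available for 61 members. Of 38 day 6 peaks at these, 34 were nearest to the 5′ end and 4 to the 3′ end. All 4 at a 3′ end (Rpl3l, Rpl4, Rpl41 and Rps18) were nearer to the start of a neighbour. The 34 midpoints had a median of 12 bp before the start, and 33 lay within 250 bp of it. The start here is the outer end of the gene record. The exception, 742 bp inside the record of Rpl19, was nearer to the start of Cacnb1 and 3965 bp before the nearest RefSeq promoter start of Rpl19. A separate day 6 peak of score 600 lay 99 bp before another of its RefSeq promoter starts, more than 1 kb from either end of the record. Measured from the RefSeq promoter starts, the other 33 peaks were within 250 bp as well. Over all protein-coding genes, 95.1% of such gene and peak pairs at day 6 were nearest to the 5′ end, against 65.0% for ESC Oct1 and 48.1% for Oct4. In ESCs, 7 of 9 Oct1 peaks and 7 of 10 Oct4 peaks at members of known strand were at the 5′ end. At day 3 this held for 8 of 13 member peaks, against 92.8% of all pairs, and the other 5 were at a 3′ end.

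**Figure D3:**
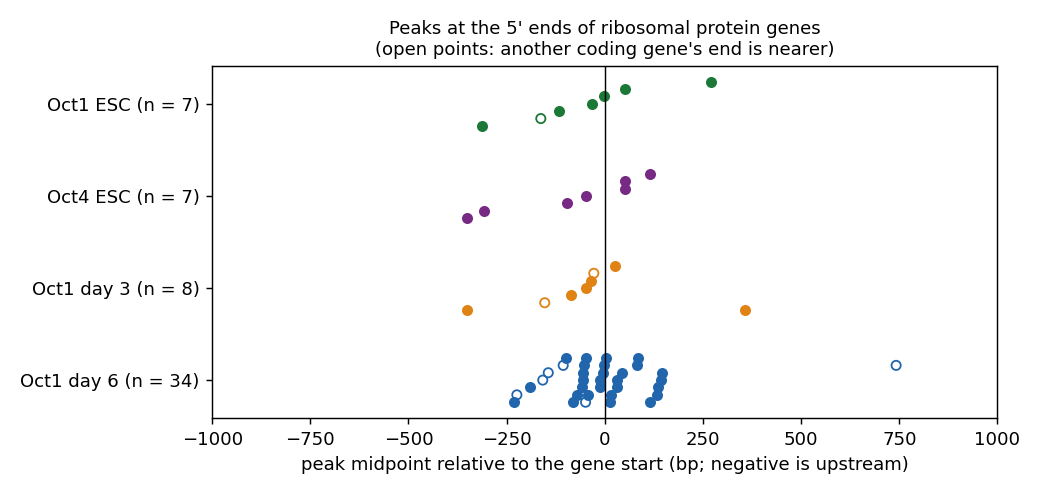
Distance from the annotated start of the gene to the peak midpoint (horizontal axis, bp, negative upstream) for peaks nearest to the 5′ end of a ribosomal protein gene of known strand, by peak list of 1 library; open points have a nearer end of another coding gene, and vertical scatter only separates points. At day 6, 33 of 34 points lie within 250 bp of the start.

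Neighbouring genes and gene length were set beside these shares. Over all protein-coding genes the day 6 share differed with both, and by length it was 34.5% at 10 kb or more against 20.6% below. Another protein-coding gene end lay within 1 kb of 29 members. Of these, 65.5% (interval 45.7 to 82.1) had a day 6 peak, against 50.4% of all genes with such a neighbour, which lies inside the interval. Of the 52 members without one, 53.8% (39.5 to 67.8) had a day 6 peak, against 22.5%. At day 3 the corresponding shares were 34.5% (17.9 to 54.3) against 24.4% with a neighbour, and 11.5% (4.35 to 23.4) against 10.5% without. Ribosomal protein genes are short, and 80 of the 81 are under 10 kb. Among genes under 10 kb, the shares of members and of all protein-coding genes were 58.8% (interval 47.2 to 69.6) against 20.6% at day 6 and 16 of 80 members (interval 11.9 to 30.4%) against 10.3% at day 3. In ESCs they were 13.8% (7.07 to 23.3) against 7.84% for Oct1 and 16.2% (8.95 to 26.2) against 8.05% for Oct4. Within this length class the share of all genes thus lay below the members' interval for Oct4, day 3 and day 6, and inside it for ESC Oct1. With peaks given only to the nearest gene end, 36 members (44.4%) had a day 6 peak, against 25.2% of all genes. How much transcription, chromatin accessibility or base composition contributed was not tested.

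**Figure D4:**
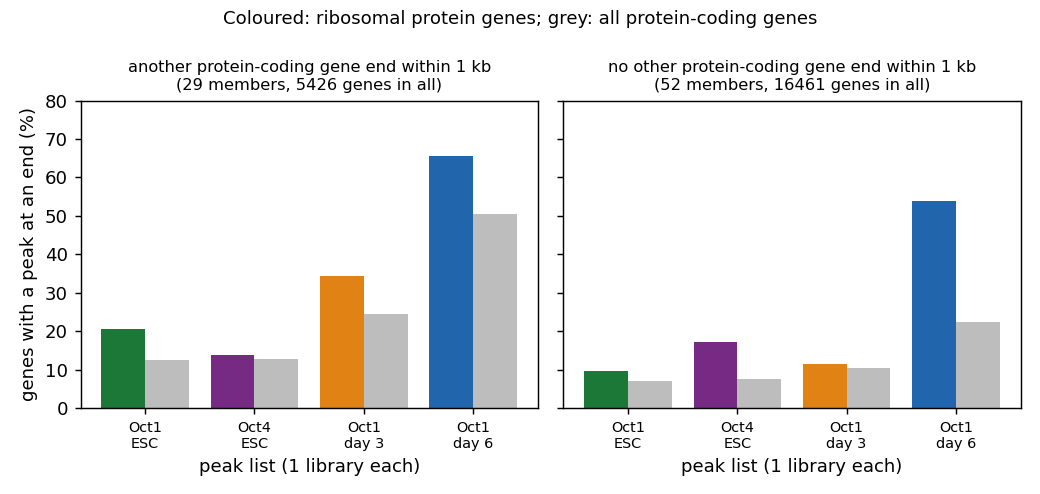
Percent of genes with a peak at an end (vertical axis) in each peak list of 1 library, for genes with and without another protein-coding gene end within 1 kb; coloured bars are ribosomal protein genes, grey bars all protein-coding genes. At day 6 the members exceed the grey bar in both panels, with 65.5% against 50.4% and 53.8% against 22.5%, while at day 3 without a neighbour they stand at 11.5% against 10.5%.

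The 31 members without a peak at an end in any list were 21 large and 10 small subunit genes. Among them were Rpl6, Rpl10, Rpl10l, Rpl11, Rpl12, Rpl13, Rpl17, Rpl18, Rpl21, Rpl22, Rpl23a, Rpl24, Rpl29, Rpl32, Rpl32l, Rpl35a, Rpl38, Rpl39l, Rplp0, Rplp1, Rps2, Rps4x, Rps6, Rps15a, Rps24, Rps26, Rps27 and Rps27l. They include core proteins such as Rplp0, the base of the stalk, Rpl11, which links ribosome assembly to p53, and Rps6, the classic target of S6 kinase. The tissue-restricted or paralogous copies Rpl10l, Rpl32l, Rpl39l and Rps27l were also among them. Of these 31, 4 had a day 6 peak inside the gene, at a start that RefSeq gives within the gene record and so more than 1 kb from its ends. The peak lay 1 bp before such a start of Rps27l (score 302), 4 bp after that of Rpl18 (973), 189 bp after that of Rpl22 (1095) and 113 bp before that of Rps2 (1453). Rps27l also had a day 3 peak there, of score 73. Counting these starts beside the gene ends, an alternative chosen after seeing the data, gave 51 members (63.0%) with a day 6 peak, against 32.0% of all genes, and left 27 members without a peak in any list. The same 4 peaks were 1461 bp (Rps27l), 1479 bp (Rpl22), 1829 bp (Rps2) and 2608 bp (Rpl18) from the nearest gene end, outside the limit of 1 kb. The members just inside the limit at day 6 were Rpl4 at 813 bp and Rpl19 at 742 bp. In ESCs an Oct1 peak lay 1634 bp from Rpl32 (score 284) and an Oct4 peak 1199 bp from Rps15a (score 217).

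Many ribosomal protein genes carry small nucleolar RNAs (snoRNAs), guides for modification of other RNAs, in their introns. The table placed 58 snoRNA genes inside 29 members. A day 6 peak was listed at 18 of these 29 (62.1%) and at 29 of the 52 others (55.8%). Of the 31 members without any peak, 11 hosted a snoRNA, against 29 of all 81 members. Shares for snoRNA hosts among all protein-coding genes were not computed.

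Genes with related roles were examined beside the members. Of 23 translation factors and other genes with TOP transcripts, 16 (69.6%, 47.1 to 86.8) had a day 6 peak, among them Eef1a1, Eef2, Tpt1, Npm1 and Pabpc1. At day 3, 8 (34.8%, 16.4 to 57.3) had one, against 14.0% of all genes. In ESCs the shares were 13.0% for Oct1 and 8.70% for Oct4, against 8.52% and 8.91% of all genes. Of 28 ribosome biogenesis factors, 16 (57.1%, 37.2 to 75.5) had a day 6 peak, among them Fbl, Ncl, Nop56 and Dkc1. An ESC Oct1 peak was listed at 6 (21.4%, 8.30 to 41.0), against 8.52% of all genes, which lies inside that interval. Their shares were 10.7% for Oct4, against 8.91%, and 17.9% at day 3, against 14.0%. Of 78 mitochondrial ribosomal protein genes, 31 (39.7%, 28.8 to 51.5) had a day 6 peak, 19 (24.4%, 15.3 to 35.4) a day 3 peak and 5 (6.41%, 2.11 to 14.3) an ESC Oct1 peak. The mitochondrial set was thus nearer to the day 6 background of 29.5%, which lay inside its interval, than the cytosolic set was. Its interval also overlapped that of the cytosolic genes. Its day 6 peaks ranked higher, with a median percentile of 76.8 against 59.7. Of 8 ribosome-linked genes that the symbol rule leaves out, 4 had a day 6 peak, among them Fau, Rpl36al and Rpl7l1.

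Promoter windows of the members were then searched for short motifs, with members grouped by peaks at gene ends, so that Rpl18, Rpl22, Rps2 and Rps27l count as without a day 6 peak. The search used 73 windows of 300 bases for 61 members and the 32851 windows of the whole table. The octamer ATGCAAAT, on either strand, was in none of the 73 windows, including the 45 of members with a day 6 peak, and in 1.74% of all windows. The related ATGCATAT was likewise in none, and in 0.770% of all. At background shares this low, none in 73 windows is close to the background, so no lack of either motif at members can be read from it. Over all protein-coding genes with a window, those holding the octamer had an Oct1 peak more often in ESCs (22.0% against 8.26% without it) and at day 3 (27.4% against 14.1%), and about as often at day 6 (26.8% against 30.2%). Peaks were at least 500 bp wide at the members and so reach beyond these windows.

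Other motifs were frequent at the members. The ETS core CCGGAAG (either strand), marked in Rpsa and Rpl27a above, was in 35.6% of member windows and 8.86% of all. By gene, 25 members held it, and 17 of these (68.0%) had a day 6 peak, against 21 of 36 (58.3%) without it. Over all protein-coding genes the same shares were 51.0% and 27.1%. The palindrome CTCGCGAG was in 11.0% of member windows and 0.919% of all. It was found at Rpl10a, Rpl12, Rpl26, Rpl27a, Rps6, Rps19 and Rps28, and lay between 53 bases before the start and the start itself in 1 window of each. Rps19 held it at 2 places, 26 and 7 bases before the start. Of these 7 members 5 had a day 6 peak, the exceptions being Rpl12 and Rps6, and 3 (Rpl26, Rps19 and Rps28) had an Oct4 peak in ESCs. Over all protein-coding genes with the palindrome the shares were 54.1% at day 6 and 12.2% for Oct4, and among members without it 61.1% and 11.1%.

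The GC box GGGCGG (either strand) was in 57.5% of member windows and 35.7% of all. Among genes with a day 6 peak it was in 62.2% of member windows and 72.5% of all windows. By gene, 66.7% of members with it and 56.0% of those without had a day 6 peak. Over all protein-coding genes these shares were 48.5% and 12.4% at day 6, and 23.3% and 5.72% at day 3. The YY1 core AAGATGGCG (either strand) was in 5 member windows, at Rpl13a, Rpl35a and Rps27, against 1.40% of all windows. Of these 3 genes Rpl13a had a day 6 peak at an end, while over all protein-coding genes 55.9% with the core and 29.6% without it had one. The TOP-like run CTTTCC, searched on the sense strand within 50 bases of the start, was in 30.1% of member windows and 4.69% of all. It was in 28.9% of the windows of members with a day 6 peak and in 32.1% of those without. A C followed by 4 pyrimidines stood exactly at the annotated start in 19.2% of member windows, against 2.51% of all, and began within 5 bases of it in 42.5%, against 18.3%. Annotated starts may differ from those used in these cells. The median GC content was 60.3% in windows of members with a day 6 peak and 53.8% in those without, against 63.7% for all genes with a day 6 peak and 52.7% for the whole table. The letters of one motif do not contain those of another, but matches may overlap in part. A match is only a run of letters, and binding at it was not measured.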

How the data were processed

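Peak lists of 4 ChIP libraries (Oct1 in ESCs, Oct4 in ESCs, Oct1 at day 3 and day 6) were used, and the 3 inputs were not analysed here. Per the submitters' processing notes, Novoalign 3.8.2 and build mm10 (GRCm38) were used. The peak caller and its threshold are not given in the sources used here. Each list deposited by the authors gives a whole-number score per peak, without a unit, used here to rank peaks within a list. There was one list per library. The labels name one target of read pairs for all libraries, and the depth reached is unknown.

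Gene ends came from RefSeq GRCm38.p6, which the build matches. A gene was counted where a peak midpoint lay within 1 kb of either end, and a peak near several genes was counted for each. Percentiles are mid-ranks among all peaks of a list, and equal scores share a rank. Shares carry exact Clopper-Pearson intervals. The members and gene lists were chosen with earlier results of these data known. Genes were named by a fixed rule (all members with an ESC peak, the 10 highest at day 3 and at day 6, those with a day 3 and no day 6 peak, and those with no peak). The software was matplotlib 3.10.9, scipy 1.17.1, pandas 2.3.3 and numpy 2.4.6 under Python 3.11.15. The assignment code was run on simulated data for each list, where 200 of 200 planted peaks were recovered. All were planted inside the 1 kb limit, so this checks the code and not whether a peak belongs to a gene. Some genes are counted in the totals and not reported by name here. No test across libraries was possible with 1 library per group. Windows of 500 bp and 2 kb, stricter scores, gene starts alone and nearest ends were tried as alternatives, and starts of the promoter table were added after seeing the data.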

Additional observations from a re-analysis of the deposited data

How the results depend on the processing

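Of 57 alternative values for 9 results, 46 stayed within 1.5 times the count or within the interval of the median, and 11 moved. The cause of the moves was not tested, except that fewer peaks or genes lower a count by construction. Of the 46, 1 could not move, because the day 3 list is itself the shortest and was not cut. With the outer gene start alone (61 members of known strand), the number of members with a peak was 7 for ESC Oct1 (11.5%, against 5.85% of all genes), 7 for Oct4 (11.5%, against 4.54%) and 8 at day 3 (13.1%, against 13.6%), while day 6 gave 34 (55.7%, against 29.3%). With all starts of the promoter table, an alternative chosen after seeing the data, it was 7 (11.5%, against 6.79%), 7 (11.5%, against 5.49%), 9 (14.8%, against 14.8%) and 38 (62.3%, against 31.8%). With the higher-scoring 50% of peaks it was 10 at day 3 (12.3%, against 9.17%) and 31 at day 6 (38.3%, against 17.4%), and 7 of the 10 day 3 members also had a day 6 peak (70.0%, against 77.9%), which turns the order against all genes. When only the 4867 highest-scoring peaks of each list were kept, it was 6 for Oct4 (7.41%, against 2.44%) and 40 at day 6 (49.4%, against 21.3%). With the nearest gene end only it was 9 at day 3 (11.1%, against 11.8%), and the day 3 median percentile went from 55.0 (61.4 over all genes) to 69.2 (61.6). Other medians stayed on the same side of that of all genes. The members' share stayed above that of all genes in each of the 7 planned and 2 added alternatives for ESC Oct1 (such as 13.6% against 6.09% with the higher-scoring 50% of peaks), Oct4 and day 6, and in 6 of the 9 at day 3. Of these 6, 1 is the uncut day 3 list, which repeats the main count. No paired analysis was possible because each group held 1 library. Depth is unknown, so a gene without a peak may be unbound or below the threshold.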
